A study of Mus musculus with 2 samples.

Results

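The genes described here encode the amyloid precursor protein family (App, Aplp1 and Aplp2), enzymes that cut it (Bace1 and the presenilin gene Psen2), members of the synuclein family (Sncb and Sncg) and the prion protein (Prnp). They are 8 of 43346 mouse genes in the deposited tables, listed by name with earlier results of these data known, and all 8 were found through their Ensembl identifiers. Each was read from gene and transcript quantifications of 2 RNA libraries of newborn mouse hindbrain, the part of the brain that holds the cerebellum, pons and medulla. Both libraries belong to 1 group: hindbrain tissue of healthy B6NTac;B6NCrl/Lap mice at postnatal day 0, males and females pooled, with no allele or agent named in the labels. Replicate 1 came from 15 mice and replicate 2 from a pool of unstated size. The labels describe separate isolates but assign both to one donor record, and part of the spread between the libraries may thus be technical. RNA longer than 200 nt was depleted of ribosomal RNA and made into stranded paired-end libraries with spike-in RNA. With a single condition there is no treated or mutant group, and since the smallest p that 2 libraries allow in an exact sign-flip test is 0.5, levels and spreads are given without p-values.

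The App family are membrane proteins with a large outer part and a short tail inside the cell. In the amyloid pathway the β-secretase Bace1 cuts App outside the membrane, the γ-secretase complex, which has a presenilin as its catalytic subunit, cuts the remaining stub within it, and amyloid-β peptide is released. The α-secretases, of the Adam family, cut App inside the amyloid-β sequence instead. Synucleins are small proteins, abundant at presynaptic terminals in the brain, and the prion protein is anchored to the outer surface of neurons and other cells.

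The libraries held 54313140 expected counts (replicate 1) and 77142270 expected counts (replicate 2). TPM, the count per effective transcript length scaled to a fixed sum, was lower in replicate 2 for most coding genes: the median fold of replicate 1 over replicate 2 was 1.43 among 15314 nuclear protein-coding genes whose mean count reached 10. In scaled counts their median log2 ratio was -0.004. That shared factor is part of the SD of each TPM given below, while ratios of genes within a library do not. All 6 hindbrain markers (Hoxa2, Hoxb2, Hoxb3, Hoxa5, En2 and Atoh1) reached 1 TPM in both libraries. Among forebrain markers, Lhx2 and Neurod6 also did, while Dlx5 was at 0 counts in both.

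All 8 genes reached 1 TPM in both libraries, against a background of 54.6% of 21461 nuclear protein-coding genes. Their mean levels ran over a wide range, with the App family at the top and Psen2 at the bottom, and their median of 36.6 TPM stood beside a median of 2.07 TPM over all nuclear protein-coding genes. In this bulk tissue, fewer cells of a type and less RNA per cell cannot be told apart.

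**Figure D1:**
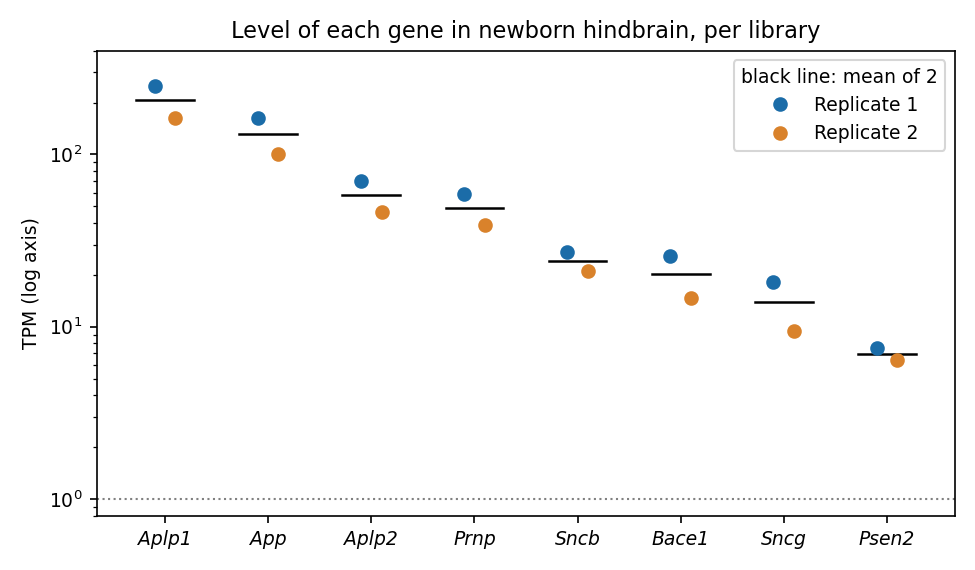
TPM (log axis) of each gene in replicates 1 and 2 of newborn hindbrain, with a black line at the mean of 2 libraries and a dotted line at 1 TPM. Every gene lies above 1 TPM in both libraries and replicate 2 lies below replicate 1 for all 8, from 251 TPM for Aplp1 in replicate 1 to 6.41 TPM for Psen2 in replicate 2.

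Aplp1, a neuronal member of the App family that lacks the amyloid-β sequence, was the most abundant of the 8. It had 251 TPM in replicate 1 and 163 TPM in replicate 2 (207 ± 62.6, SD, n = 2), from 42721 and 56321 expected counts. That placed it at rank 111 of 21461 coding genes (ENSMUSG00000006651.7, chromosome 7, 30434982 to 30445535, minus strand, mm10). App itself, the source of amyloid-β (ENSMUSG00000022892.10, chromosome 16, 84949685 to 85173766, minus strand), had 162 TPM in replicate 1 and 101.06 TPM in replicate 2 (132 ± 43.4, SD, n = 2) and ranked 217. Aplp2, the most widely expressed App relative and likewise without amyloid-β (ENSMUSG00000031996.12, chromosome 9, 31149557 to 31211815, minus strand), had 69.7 TPM in replicate 1 and 46.2 TPM in replicate 2 (57.9 ± 16.7, SD, n = 2) and ranked 613.

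The order Aplp1, App, Aplp2 held in both libraries, and each step was larger than the spread between them. A difference was called larger than the spread where its mean log2 ratio of TPM + 0.1 exceeded 3 SD and had one sign in both libraries. App over Aplp1 was -0.66 ± 0.04 on that log2 scale (SD, n = 2), App over Aplp2 was 1.17 ± 0.06 and Aplp1 over Aplp2 was 1.83 ± 0.02. Of the summed TPM of the family, Aplp1 took 52.0% in replicate 1 and 52.5% in replicate 2, App 33.6% and 32.6%, and Aplp2 14.4% and 14.9%. The family's makeup therefore moved by at most about 1 percentage point between the libraries, although the sum itself was 483 TPM in replicate 1 and 310 TPM in replicate 2.

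The family is known for alternative splicing of an exon that encodes a Kunitz-type protease inhibitor domain, present in some forms of App and Aplp2 and absent from Aplp1. Those exons are printed here because the forms of both genes are told apart by them. Capitals mark the exon and lower case the 15 spliced bases on each side, from GENCODE transcripts on build GRCm38 (mm10). The App exon lies at chr16:85043576-85043743 and the Aplp2 exon at chr9:31167561-31167728, both on the minus strand, both exon 7 of the transcript they were read from and both 168 nt of coding sequence, or 56 residues.
App Kunitz exon: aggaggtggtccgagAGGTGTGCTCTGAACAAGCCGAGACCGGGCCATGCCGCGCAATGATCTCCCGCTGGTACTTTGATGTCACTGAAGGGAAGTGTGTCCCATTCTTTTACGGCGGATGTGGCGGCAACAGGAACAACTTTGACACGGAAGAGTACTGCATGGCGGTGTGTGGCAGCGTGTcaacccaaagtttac
Aplp2 Kunitz exon: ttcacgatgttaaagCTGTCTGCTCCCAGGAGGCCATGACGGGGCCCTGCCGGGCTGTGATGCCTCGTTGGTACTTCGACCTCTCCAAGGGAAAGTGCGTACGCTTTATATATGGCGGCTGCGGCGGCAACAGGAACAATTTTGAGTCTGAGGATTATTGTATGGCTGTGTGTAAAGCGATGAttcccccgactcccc
Aligned without gaps, 114 of 168 bases of the exons (67.9%) were identical.

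For App the deposited transcript table listed a single transcript, App-201, which codes for 695 residues and has no Kunitz exon. It is the form known as the main one of neurons. All 37439 (replicate 1) and 47303 (replicate 2) expected counts of the gene were assigned to it. The other 5 coding App transcripts of the later GENCODE release M21, with annotated coding lengths of 582 to 770 residues, all carry the Kunitz exon and none was listed in the deposited table. The share of App RNA with the inhibitor domain could therefore not be read from these files. The listed App-201 was 3128 nt long, against 3176 nt in release M21, and where the models differ was not tested. Aplp1 (1 transcript listed, 5 in release M21) and Sncg (1 in both) also had no second form to compare.

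Aplp2 had 2 listed transcripts, and both were abundant. Aplp2-202, of 707 residues and without the Kunitz exon, held 59.8% of the gene's TPM in replicate 1 and 56.3% in replicate 2. Aplp2-201, of 751 residues and with the Kunitz exon, held 40.2% in replicate 1 and 43.7% in replicate 2 (42.0 ± 2.50%, SD, n = 2). In expected counts these were 10970 and 13867 for Aplp2-202 and 7677 and 11217 for Aplp2-201. Besides the Kunitz exon the forms differ in a second coding exon of 36 nt, at chr9:31156190-31156225 on the minus strand, which only Aplp2-202 contains.
Aplp2 short exon: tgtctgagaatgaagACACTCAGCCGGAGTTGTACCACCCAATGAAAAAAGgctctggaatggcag
Since the listed forms carry either the one exon or the other, the shares do not separate the use of the Kunitz exon from that of the short exon. Release M21 lists 10 Aplp2 transcripts, 8 of which had no row of their own here.

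Bace1, the β-secretase and an aspartic protease, had 25.7 TPM in replicate 1 and 14.8 TPM in replicate 2 (20.3 ± 7.76, SD, n = 2), from 6207 and 8013 expected counts. It ranked 2409 among coding genes (ENSMUSG00000032086.8, chromosome 9, 45838580 to 45864399, plus strand). Its RNA was spread over several listed forms, and the full-length coding form was not the leading one by TPM. Coding stretches by which those forms differ are printed for that reason, with the flanks in lower case as above. The exon at chr9:45858400-45858501, exon 6 of 102 nt on the plus strand, codes for 34 residues that include one of the pair of catalytic aspartates. The stretch at chr9:45856088-45856162 is the first 75 nt of exon 4 and codes for 25 residues.
Bace1 exon 6: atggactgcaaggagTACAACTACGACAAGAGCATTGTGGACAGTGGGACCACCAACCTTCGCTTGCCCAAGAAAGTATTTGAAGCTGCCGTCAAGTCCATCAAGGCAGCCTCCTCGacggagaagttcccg
Bace1 start of exon 4: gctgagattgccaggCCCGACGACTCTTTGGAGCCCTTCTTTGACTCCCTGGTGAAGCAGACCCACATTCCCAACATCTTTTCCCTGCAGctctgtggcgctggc

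Bace1-202, of 467 residues, skips exon 6 and led with 42.0% of the gene's TPM in replicate 1 and 52.1% in replicate 2. Bace1-206, annotated without its 5′ end and lacking the start of exon 4, had 39.2% in replicate 1 and 27.3% in replicate 2. Bace1-201, the full form of 501 residues and 6058 nt, had 17.9% in replicate 1 and 17.6% in replicate 2. Bace1-202 is 4041 nt long, with 1401 nt of coding sequence against 1503 nt in the full form. These forms therefore also differ in length outside the coding sequence. The shares do not separate skipping of exon 6 from that difference. In counts the picture differed, because Bace1-206 is only 1148 nt long: the full form held 35.1% of the counts on coding transcripts in replicate 1 and 31.7% in replicate 2, while Bace1-202 held 53.7% and 61.0%. Bace1-202 was the leading form on both measures and in both libraries, and the full form kept a nearly constant share of TPM (18.1 ± 0.10% of coding transcripts, SD, n = 2). Its position below Bace1-206 was a matter of TPM alone, since Bace1-206 had 689 and 567 counts, against 2162 and 2477 for the full form. Bace1-206 also supplied 10.09 TPM of the gene's TPM in replicate 1 and 4.02 TPM in replicate 2. The TPM of Bace1, its rank and its ratios to other genes therefore depend in part on that short form.

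An annotated antisense gene, Gm16536, lies inside Bace1 on the opposite strand (45856769 to 45858357) and overlaps neither of the printed Bace1 stretches. It had 9.91 TPM in replicate 1 and 5.69 TPM in replicate 2, from 1035 and 1217 expected counts. The 3′ end of Bace1 also overlaps the opposite-strand gene Rnf214, with 2593 and 3714 counts. No source says if strand was used in counting, and the division of overlapping reads between Bace1 and these genes is uncertain.

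Psen2, the presenilin among the 8, was the lowest of them. It had 7.54 TPM in replicate 1 and 6.41 TPM in replicate 2 (6.97 ± 0.80, SD, n = 2), from 983 and 1540 expected counts, and ranked 6477 (ENSMUSG00000010609.11, chromosome 1, 180227004 to 180263438, minus strand). Bace1 over Psen2 was 1.47 ± 0.40 on the log2 TPM scale (SD, n = 2), larger than the spread, at 3.41-fold in replicate 1 and 2.30-fold in replicate 2.

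The Psen2 transcript mixture differed more between the libraries than that of the other genes with several listed forms. Psen2-205, of 448 residues, held 84.0% of the gene's TPM in replicate 1 and 50.2% in replicate 2. Psen2-203, which codes for the same length from another first exon, held 9.39% in replicate 1 and 27.8% in replicate 2, from 73.2 and 376 expected counts. Psen2-202, of 447 residues and from another start again, had no counts in replicate 1 and 117 in replicate 2, or 0% and 9.39% of the TPM. It averaged 4.70%, below the 5% set for naming transcripts, and was chosen after its values were seen. The retained-intron form Psen2-212, picked the same way, had 0.93% in replicate 1 and 6.27% in replicate 2.

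The share of the leading Psen2 form fell by 33.87 percentage points in replicate 2 relative to replicate 1, which was more than the shift of the leading transcript in 91.8% of 8677 protein-coding genes that had at least 2 listed transcripts and 1 TPM in both libraries. Among those genes the median shift was 7.56 points, and 10.5% moved by 30 points or more. Among 3722 of them with a mean count of 500 to 2500, the range in which Psen2 lies, the median was 9.77 points and 14.5% moved that far. The deposited intervals, whose level is not stated, did not overlap for Psen2-205. They ran from 5.35 to 6.67 TPM in replicate 1 and from 2.69 to 3.68 TPM in replicate 2. However, the fold between the nearest bounds is close to the 1.43-fold median TPM factor of coding genes. The intervals of Psen2-203 did overlap, at 0.165 to 1.501 TPM in replicate 1 and 0.908 to 2.29 TPM in replicate 2. Those of the rarer forms did not, at up to 0.176 TPM in replicate 1 and 0.328 to 0.999 TPM in replicate 2 for Psen2-202, and at 0.0257 to 0.152 TPM and 0.309 to 0.512 TPM for Psen2-212. The leading form was Psen2-205 in both libraries all the same.

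RefSeq gives a pair of Psen2 start sites, and the promoter windows are printed because one belongs to the leading transcript and the other to a transcript with no counts. Each line shows the 250 bases before the start on build GRCm38.p6, minus strand, 5′ to 3′. Capitals mark GGGCGG, the GC box, on either strand. TATAAA and CCAAT were also searched on both strands, with no match in either window, and no match says only that these letters are not there.
Psen2 start of Psen2-205, chr1:180256301-180256550: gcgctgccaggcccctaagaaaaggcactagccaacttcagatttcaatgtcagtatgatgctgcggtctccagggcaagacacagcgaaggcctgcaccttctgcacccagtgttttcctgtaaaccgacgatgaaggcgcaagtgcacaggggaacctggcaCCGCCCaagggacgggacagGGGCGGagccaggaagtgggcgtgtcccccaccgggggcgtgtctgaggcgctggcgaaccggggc
Psen2 start of Psen2-201, chr1:180245951-180246200: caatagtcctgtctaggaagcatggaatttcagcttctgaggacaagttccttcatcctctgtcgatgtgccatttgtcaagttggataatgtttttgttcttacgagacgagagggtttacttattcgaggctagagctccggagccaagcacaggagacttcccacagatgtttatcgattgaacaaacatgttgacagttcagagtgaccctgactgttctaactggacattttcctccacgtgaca
The first window had 62.8% G + C, 15 CpG dinucleotides and 2 GC boxes. The second had 44.8% G + C, 7 CpG and no GC box. Over 32851 RefSeq promoter windows of the same length the medians were 52.4% G + C and 6 CpG, and 32.7% held a GC box. Psen2-201, which starts at 180245950, had 0 expected counts in both libraries. A count of 3 would be 0.0217 TPM in replicate 1 and 0.0106 TPM in replicate 2, while the upper bounds of the deposited intervals are higher, at 0.230 and 0.0874 TPM. Psen2-202, with 0 counts in replicate 1 and 117 in replicate 2, starts close downstream of that site, at 180245757. The lack of counts on Psen2-201 therefore does not show that this start region was unused.

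**Figure D2:**
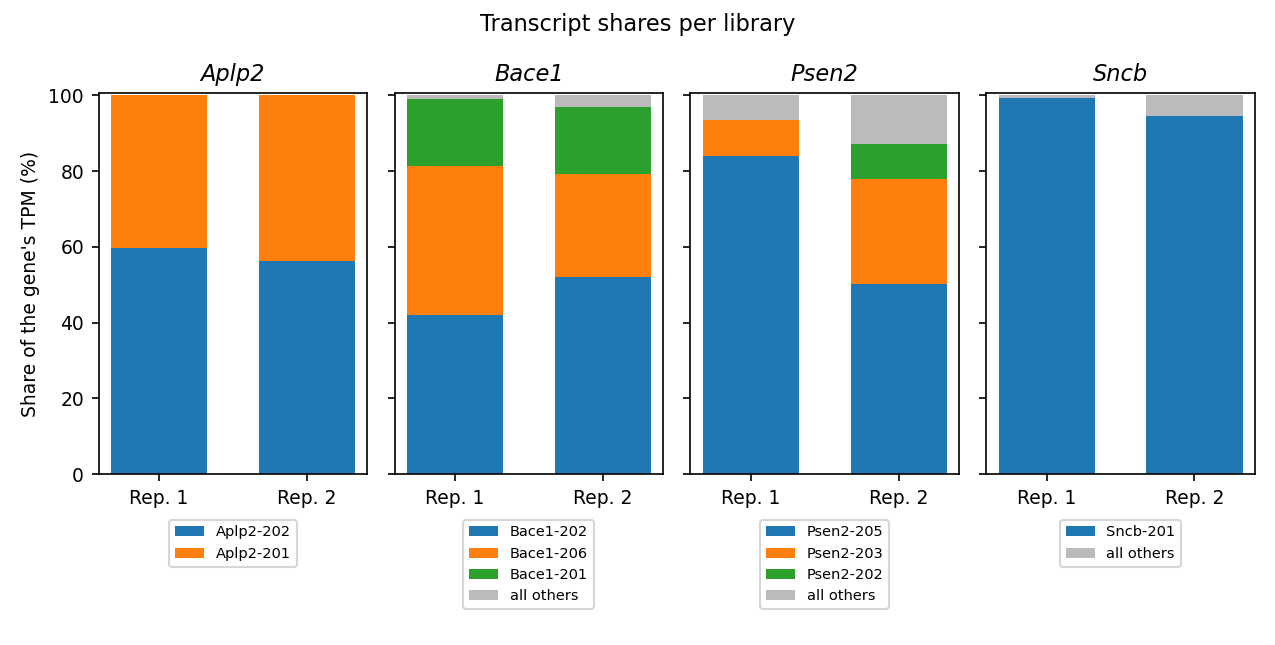
Share of each gene's TPM (percent) held by its listed transcripts in replicate 1 and replicate 2, for the genes of the set with 2 or more forms carrying counts. Transcripts averaging at least 4% are coloured and all others are grey. Relative to replicate 1, Aplp2-202 fell by 3.53 points in replicate 2, Bace1-202 rose by 10.08 points, and Psen2-205 fell to 50.2% in replicate 2, against 84.0% in replicate 1.

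The same transcript led in both libraries for all 5 genes with at least 2 listed transcripts (Aplp2, Psen2, Bace1, Sncb and Prnp), against a background of 80.9% of 8677 genes. Prnp adds little to that count, because its other listed form, Prnp-202, is only 319 nt long and had 0 counts. Retained-intron forms are listed for Bace1, Psen2 and Sncb. Their summed share of the gene's TPM was 0.89% in replicate 1 and 2.98% in replicate 2 for Bace1, 2.92% and 9.05% for Psen2, and 0.81% and 3.78% for Sncb. It was higher in replicate 2 for all 3, against a background of 58.4% of 4866 genes with such a form. The median of those genes was 5.83% in replicate 1 and 7.96% in replicate 2. The part of this difference in the transcript shares of Psen2 was not tested.

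Sncb, the β-synuclein gene (ENSMUSG00000034891.9, chromosome 13, 54758860 to 54766595, minus strand), had 27.0 TPM in replicate 1 and 21.2 TPM in replicate 2 (24.1 ± 4.14, SD, n = 2), from 2285 and 3546 expected counts. A single form, Sncb-201 of 133 residues, held 99.2% of that in replicate 1 and 94.5% in replicate 2. Sncg, the γ-synuclein gene, known for high expression in peripheral sensory and motor neurons (ENSMUSG00000023064.4, chromosome 14, 34370274 to 34374789, minus strand), had 18.2 TPM in replicate 1 and 9.48 TPM in replicate 2 (13.9 ± 6.18, SD, n = 2), from 803 and 872 counts. Sncb lay above Sncg in both libraries, by 1.48-fold in replicate 1 and 2.23-fold in replicate 2. The log2 ratio of 0.86 ± 0.41 (SD, n = 2) did not exceed 3 SD, so the order of these synucleins was not larger than the spread.

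Prnp, the prion protein gene (ENSMUSG00000079037.5, chromosome 2, 131909928 to 131938429, plus strand), had 59.1 TPM in replicate 1 and 38.9 TPM in replicate 2 (49.0 ± 14.3, SD, n = 2), from 9057 and 12145 counts. Prnp over App was -1.42 ± 0.06 on the log2 TPM scale (SD, n = 2), or 0.364-fold in replicate 1 and 0.385-fold in replicate 2. All its counts fell on Prnp-201, which codes for 254 residues, and the overlapping same-strand gene Prn had 0 counts in both libraries. The other listed form, Prnp-202, is only 319 nt long. A count of 3 on it would be 2.07 TPM in replicate 1 and 0.643 TPM in replicate 2. Its 0 counts therefore say little about its level. The RefSeq promoter window of Prnp was the only one of the 8 windows searched for this set to hold all 3 motifs. It is shown for that reason, again with matches on either strand in capitals.
Prnp, chr2:131909678-131909927, plus strand: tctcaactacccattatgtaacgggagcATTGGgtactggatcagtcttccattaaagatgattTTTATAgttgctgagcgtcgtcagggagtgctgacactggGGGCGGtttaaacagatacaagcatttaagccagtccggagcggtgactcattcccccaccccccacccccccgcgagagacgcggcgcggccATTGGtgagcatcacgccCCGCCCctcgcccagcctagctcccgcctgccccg
It held 2 GC boxes, 1 TATAAA and 2 CCAAT matches. Across the 32851 windows, TATAAA occurred in 12.4% and CCAAT in 33.8%. Aplp2 had 3 GC boxes and 2 CCAAT matches, Sncb 1 of each, and App, Aplp1 and Sncg 1 GC box and nothing else. G + C was above the median of all windows in every window of the set except the second one of Psen2, from 58.8% for Prnp and Sncb to 70.8% for App. Bace1 has no entry in the table.

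In order of mean TPM the 8 genes were Aplp1, App, Aplp2, Prnp, Sncb, Bace1, Sncg and Psen2. Neighbours differed by more than 3 SD of their log2 ratio at each step other than Sncb over Bace1 (0.07 in replicate 1 and 0.52 in replicate 2) and Sncg over Psen2 (1.26 and 0.56). The smallest step that held was Aplp2 over Prnp, at 0.24 ± 0.01 (SD, n = 2).

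For ratios between the libraries, counts were scaled by TMM, a trimmed mean of ratios over genes. None of the 8 lay past 0.5 on the log2 scale of replicate 2 over replicate 1, against a background of 22.3% of 15314 coding genes whose mean count reached 10. That background includes thinly counted genes, and among 10681 coding genes whose mean count reached 500 the share was 6.53%. All 8 genes reached that mean count, and none of 8 lies near this lower share, so it sets them apart from other well-counted genes in no way. The ratio was -0.17 ± 0.02 for App, where the error is that of a 95% counting interval, -0.11 ± 0.02 for Aplp1, -0.08 ± 0.03 for Aplp2, -0.09 ± 0.04 for Prnp and -0.14 ± 0.05 for Bace1. Higher values in replicate 2 came from Sncb, at 0.13 ± 0.08, and Psen2, at 0.14 ± 0.12. With spike-in scaling, which shifts the median of coding genes to 0.096, the ratios of Aplp2 and Prnp turned positive, at 0.02 and 0.01. All 8 counting intervals left out 0 with TMM scaling, while with spike-in scaling those of Aplp1, Aplp2, Bace1 and Prnp (4 of 8) held 0. Counting intervals leave out the variation between tissue pools and library preparations, and the median absolute log2 ratio of the 10681 genes with TMM scaling was 0.146.

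**Figure D3:**
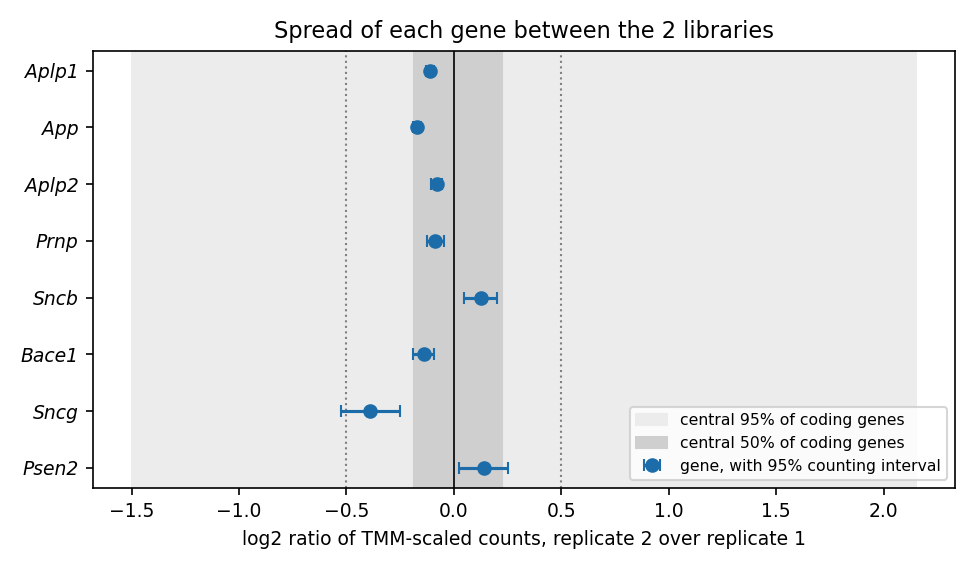
Log2 ratio of TMM-scaled counts, replicate 2 over replicate 1, for each gene, with bars for the 95% counting interval. Grey bands hold the central 50% and 95% of 15314 coding genes and dotted lines mark 0.5 in each direction. Sncg, at -0.39, is the one gene outside the central 50%, which runs from -0.185 to 0.224.

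Sncg had the largest difference of the 8, at -0.39 ± 0.14. Markers of motor and peripheral sensory neurons moved the same way: 7 of 8 had lower scaled counts in replicate 2, with a median log2 ratio of -0.25. Their summed level was 33.3 TPM in replicate 1 and 18.4 TPM in replicate 2, a difference that includes the 1.43-fold TPM factor shared by coding genes and rests mostly on Prph. Prph, the intermediate filament peripherin, had 19.3 TPM in replicate 1 and 10.04 TPM in replicate 2, or -0.42 on the log2 ratio scale. Isl1, a transcription factor of motor and sensory neurons, had a ratio of -0.20. Of the 8 markers 4 reached 1 TPM in both libraries, and the sensory neuron markers Avil (0.36 and 0.10 TPM) and Scn10a (0.03 and 0.01 TPM) were near 0. Their part in the Sncg difference was not tested.

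Genes that act with these proteins were read from 7 lists of 48 genes. Of these, 42 reached 1 TPM in both libraries, against a background of 54.6% of 21461 nuclear protein-coding genes. The counts given per list below stand against that same share. Of the 47 that were matched and had a mean count of 10 or more, 2 lay past 0.5 between the libraries. Both were higher in replicate 2. The background was 22.3% of 15314 coding genes with such a count. Among the 10681 whose mean count reached 500 it was 6.53%, so the 2 of 47 do not set the lists apart. The median log2 ratio of the 47 genes was -0.064, against -0.098 for the 8 genes and -0.004 for all coding genes. By median level the lists fell on either side of the 36.6 TPM of the 8 genes. The secretases and amyloid-β proteases lay lowest, at 3.79 and 6.08 TPM, and the App adaptors and synuclein partners highest, at 63.9 and 80.5 TPM.

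**Figure D4:**
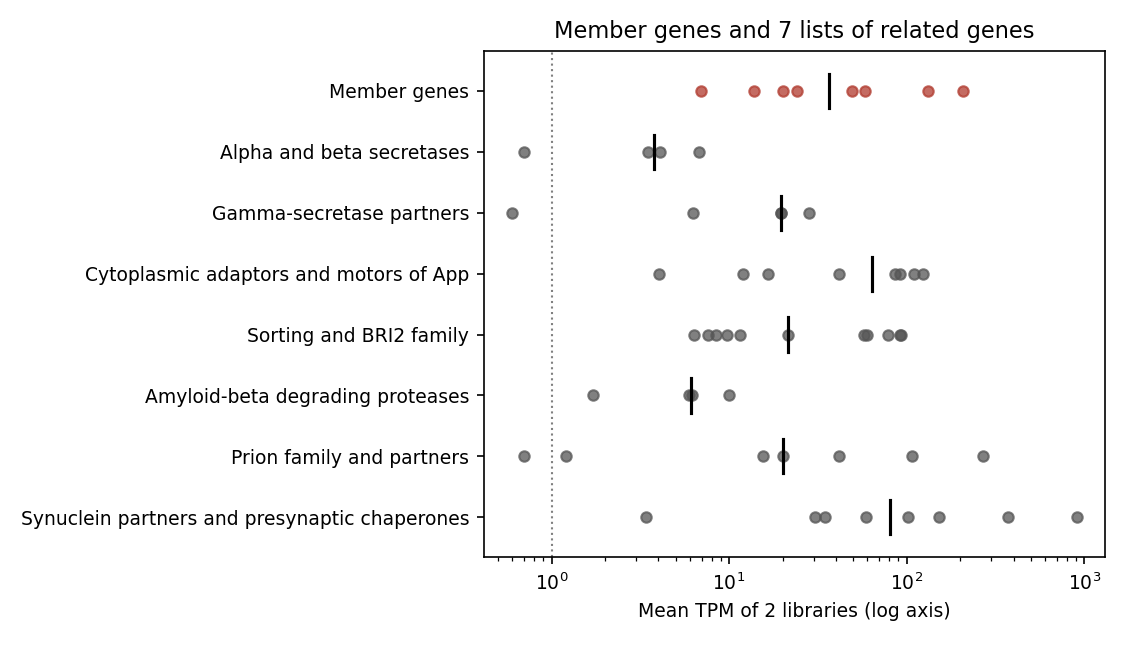
Mean TPM of 2 libraries (log axis) for the 8 genes (red) and for the genes of 7 lists (grey), with a black bar at each median and a dotted line at 1 TPM. The median of the 8 genes is 36.6 TPM, above those of the secretase (3.79) and protease (6.08) lists and below that of the synuclein partners (80.5).

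Among the other secretases, 3 of 4 reached 1 TPM in both libraries. Adam9, Adam17 and Adam10, metalloproteases that can act on App as α-secretases, averaged 6.74 ± 2.48, 4.09 ± 0.67 and 3.50 ± 0.35 TPM (SD, n = 2). Bace2, the close relative of Bace1, averaged 0.70 ± 0.17 TPM. Each of these means was lower than the 20.3 TPM of Bace1. Of the γ-secretase partners of the presenilins, 4 of 5 reached 1 TPM. Aph1a, a scaffold subunit, averaged 28.2 ± 5.68 TPM, Psenen, the smallest subunit, 19.7 ± 2.16, and Ncstn, which codes for nicastrin, 19.6 ± 6.67, all higher than the 6.97 TPM of Psen2. Aph1c was the lowest, at 0.60 TPM in each library, and at 0.503 on the log2 ratio scale it was one of the genes past 0.5. Aph1b and Aph1c are close copies, so the division of reads between them is uncertain.

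All 8 matched genes for adaptors and motors that bind the App tail reached 1 TPM. Apba2 (Mint2) averaged 124 ± 47.3 TPM, the kinesin light chain gene Klc1 110 ± 40.9 and Apbb1 (Fe65) 91.7 ± 23.2 (SD, n = 2), near the 132 TPM of App. Numb was the lowest, at 4.03 ± 0.89 TPM. All 11 genes for sorting receptors, BRI2 relatives and reticulons reached 1 TPM, led by Rtn3 with 93.1 ± 28.9, Itm2b (BRI2) with 92.3 ± 25.7 and Itm2c with 78.4 ± 19.8 TPM. Sorl1, a sorting receptor for App, was the lowest at 6.32 ± 2.01 TPM. The amyloid-β proteases Ece1, Ide and Ece2 averaged 9.96 ± 3.25, 6.22 ± 1.10 and 5.93 ± 0.01 TPM, and Mme (neprilysin) was the lowest with 1.72 ± 1.12 TPM. Mme, at 0.93 TPM in replicate 2, was the one of these 4 that missed 1 TPM.

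Among prion family genes and partners, 5 of 7 reached 1 TPM in both libraries. Rpsa, the laminin receptor and ribosomal protein gene, averaged 269 ± 37.5 TPM, the adhesion gene Ncam1 107 ± 40.6 and the glutamate receptor gene Grm5 41.5 ± 11.1 (SD, n = 2). Adgrg6, a receptor of Schwann cells to which the prion protein's flexible tail binds, was the lowest. It had 0.57 TPM in replicate 1 and 0.83 TPM in replicate 2 from 288 and 852 counts, or 1.05 on the log2 ratio scale, the one gene of the 7 lists past 1. Synuclein partners and presynaptic chaperones all reached 1 TPM (8 of 8). Hspa8, the constitutive Hsc70 chaperone, averaged 906 ± 229 TPM, Uchl1, a ubiquitin hydrolase of neurons, 373 ± 93.5 and Rab3a, a GTPase of synaptic vesicles, 151 ± 26.6. Sncaip (synphilin-1) was the lowest, at 3.43 ± 2.11 TPM.

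The coding gene whose levels in the 2 libraries lay nearest to those of each gene was Usp22 for App, Ndn for Aplp1, Copg1 for Aplp2, Idh1 for Prnp, Dchs1 for Sncb, Fjx1 for Bace1, Cpne1 for Sncg and Ppp1r3c for Psen2. The distance, in log2(TPM + 0.1) over 2 libraries, ran from 0.0087 for Psen2 to 0.0307 for Aplp1. Usp22 had 164 and 100.97 TPM (replicates 1 and 2) beside 162 and 101.06 TPM for App. With 2 libraries this likeness is one of level only.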

How the data were processed

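For each library the authors deposited gene and transcript quantifications, based on mm10 and GENCODE release M4 per the notes beside the files. The sources used here name neither aligner nor quantifier. Per the file headers, expected counts are estimates and may be fractional, TPM divides them by effective length to a fixed sum, and percent columns hold the part of a gene's TPM on each transcript. Posterior means and interval bounds are also deposited.

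Symbols, gene types and exons came from GENCODE release M21 on the same build, with 42462 of 43346 mouse genes matched (98.0%). Promoter sequences are RefSeq's (GRCm38.p6). Protein sequences were not used here. For ratios between the libraries, expected counts were rounded and scaled with TMM factors in edgeR 4.0.16 (R 4.3.3), with a prior count of 2. Alternative scalings used spike-in counts, total counts or the size factors of DESeq2 1.42.0. The ratio calculation was tested on simulated data. TPM ratios used a pseudocount of 0.1. Reads carry no molecular identifiers, so counting intervals (Poisson, 95%) and the floor of 3 counts cover counting error only.

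The genes and lists were chosen with earlier results of these data known. Named are all 8 genes, the 3 highest and the lowest of each list by mean TPM, list genes past 1 on the log2 ratio scale, the nearest coding gene by level, and transcripts averaging at least 5% of their gene. From the list of App adaptors 1 gene is not analysed here. Some marker values are not reported here.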

Additional observations from a re-analysis of the deposited data

How the results depend on the processing

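Spike-in scaling moved 6 of the ratios between the libraries. It turned those of Aplp2 and Prnp round, to 0.02 and 0.01 on the log2 scale, and gave -0.07 for App, -0.01 for Aplp1, -0.04 for Bace1 and 0.23 for Sncb, while the shift it makes in the median of coding genes is as large. The cause of the gap between spike-in and TMM scaling was not tested. With DESeq2 size factors, total counts, a prior count of 0.5 or TMM over genes whose mean count reached 10, the median ratio of the 8 genes stayed at -0.10, and with spike-in scaling it was 0.00. No scaling put a gene past 0.5, and a limit of 10 TPM left 6 of 8 genes detected in both libraries.

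Shares of Bace1 forms depended on the measure. Bace1-202 held 57.33% and the full form 33.43% of the counts on coding transcripts, against 48.08% and 18.10% of TPM, and over all transcripts the full form held 17.75%. The difference follows from dividing by length. Sncb-201 held 96.80% over all transcripts, against 99.07% of coding ones. Without replicate 1 or replicate 2, with 1 library left and hence no spread to judge by, the Psen2-205 share ran from 57.42% to 89.93% of coding transcripts, Bace1 over Psen2 from 1.19 to 1.76 and Sncb over Sncg from 0.57 to 1.15 on the log2 scale. No paired analysis was possible because the series has 1 group. Depth limits Psen2, with 983 and 1540 counts shared among its forms, and Sncg, with 803 and 872.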
